A study of Mus musculus with 15 samples.

Results

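Plasma cells from mouse spleen that lacked B220 and had taken up 2NBDG (B220-2NBDG+) were compared with those that carried B220 and had not taken up 2NBDG (B220+2NBDG-), the opposite corners of a sort on both features. The comparison used 6 of the 15 RNA-seq libraries of the series, 3 per group. These were all the spleen libraries with one or the other combined phenotype, chosen by their labels. All cells were plasma cells with high CD138 and no Ly6g or CD11c, taken straight from untreated, unimmunized male C57Bl6/N mice aged 8 to 12 weeks, with about 30000 cells per subset sorted in repeated rounds. The other 9 libraries were B220-2NBDG- and B220+2NBDG+ spleen plasma cells and bone marrow plasma cells (BMPC, B220- and 2NBDG+), 3 each. The replicates are called biological in the labels. Whether each came from 1 mouse or from a pool is not given in the sources used here, and p-values measure the spread between these samples.

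Plasma cells are the antibody-secreting end state of the B lineage. They arise from activated B cells through dividing plasmablasts, and along this path they stop dividing, lose the antigen presentation and surface receptors of B cells, and build up the machinery that makes, folds and exports immunoglobulin. B220 is a form of CD45 (gene Ptprc) carried by B cells and lost by many plasma cells, and 2NBDG is a fluorescent analogue of glucose that cells with active glucose uptake take in. Neither label states maturity as such. The marker genes below describe the groups by genes known from that path, and the place of each group on it was not tested. The groups are called here by their sort phenotypes.

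Expression is given as TPM (transcripts per 1000000) per gene after immunoglobulin genes were set aside and the rest was rescaled to 1000000 per library. Differences are log2 fold changes of TPM + 1, B220-2NBDG+ minus B220+2NBDG-, with their standard errors (SE), and a gene was called at a limma adjusted p under 0.05. The spread in that test came from all 15 libraries, bone marrow included, and 788 genes were called with the 6 libraries alone. Depth was 17312362 to 21960502 estimated reads in the 6 libraries. Outside the immunoglobulin genes it was 7406108 to 9935343 in B220+2NBDG- and 5067036 to 5831533 in B220-2NBDG+, so low genes were measured less precisely in the latter. Mitochondrially encoded genes took 10.1% to 13.5% of TPM over the 15 libraries. A principal component analysis put the B220+2NBDG- libraries at -42.2, -44.1 and -24.4 and the B220-2NBDG+ libraries at 11.9, 9.1 and 28.6 on its leading axis, which held 29.8% of the variance. The 3 libraries of each group are called N1 to N3 (B220+2NBDG-) and P1 to P3 (B220-2NBDG+) where one is singled out. N3 was least like its replicates, with a Pearson r over genes of 0.946 to one and 0.939 to the other.

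The genes of the sort gave a partial check of the labels. Sdc1, which encodes CD138, was at 52.3, 36.1 and 96.0 TPM in B220+2NBDG- and 169, 89.5 and 59.3 in B220-2NBDG+, with overlapping libraries (log2 0.76, SE 0.41, adjusted p = 0.239; -0.34 on TPM as deposited). Ptprc was at 281, 301 and 114 TPM against 142, 130 and 131 (log2 -0.66, SE 0.30, adjusted p = 0.165), and it passed the test without N3 (log2 -1.11, adjusted p = 0.00264). A gene total does not separate the B220 form of CD45 from its other forms. Ly6g, a neutrophil surface protein, stayed at or below 2.15 TPM in the 6 libraries and Itgax, which encodes CD11c, at or below 1.43. The regulators that define plasma cells were expressed in both groups and did not pass the test. Prdm1 (Blimp-1) averaged 38.8 and 48.1 TPM (log2 0.29, adjusted p = 0.605), Irf4 220 and 252 (log2 0.19, adjusted p = 0.716), and Xbp1, which drives the secretory programme, 419 and 470 (log2 0.25, adjusted p = 0.479). The 3 differences were -0.64, -0.95 and -0.92 on deposited TPM, and Xbp1 was called higher without N3 (log2 0.60, adjusted p = 0.00238).

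Immunoglobulin transcripts filled more of the B220-2NBDG+ libraries. Their genes held 91.1%, 91.7% and 92.1% of deposited TPM in B220+2NBDG- (91.6% ± 0.527, SD, n = 3) and 96.3%, 96.3% and 96.6% in B220-2NBDG+ (96.4% ± 0.172, SD, n = 3). The groups did not overlap. The difference was 4.74 percentage points (two-sided exact permutation p = 0.1, the smallest that 3 against 3 allows). As a share of estimated reads it was 55.2% ± 1.79 against 74.2% ± 1.4, a difference of 19.1 points (exact permutation p = 0.1). From constant region genes alone it was 0.671 points (11.9% against 12.6%, exact permutation p = 0.1). Within the heavy chain constant genes, Ighm (IgM) gave 68.7%, 69.3% and 79.6% in B220+2NBDG- and 56.6%, 50.9% and 66.1% in B220-2NBDG+, again without overlap. Igha (IgA) gave 5.66%, 7.42% and 2.73% against 19.4%, 18% and 10.9% (exact permutation p = 0.1 for each). Setting these genes aside multiplied the other values by 11.2 to 12.7 in B220+2NBDG- and by 26.9 to 29.3 in B220-2NBDG+, a difference of 1.21 on the log2 scale. A gene that rose by less than about this amount outside the immunoglobulin genes was therefore level or lower as a share of all deposited TPM. Both values are given for such genes. As a share of estimated reads this amount would be smaller, since immunoglobulin genes held 55.2% and 74.2% there. Single genes were not compared as a share of all estimated reads. The same 1 TPM was added to deposited values, which are smaller by the factors above. For low genes a deposited difference is therefore drawn toward no change, and a lost call can come from that 1 TPM.

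Of 11246 genes tested, 1750 were called (15.6%), 552 higher in B220-2NBDG+ (4.91%) and 1198 lower (10.7%). List counts below are to be read beside these shares of all genes. At a change of at least 2-fold there were 228 higher and 596 lower, and at 4-fold 31 and 170. The median log2 fold change of all tested genes was -0.13. With libraries scaled by median of ratios it was -0.01 and the calls were even, 840 higher and 841 lower. On deposited TPM it was -0.38, with 62 higher and 8854 lower, a median drawn toward no change by the added 1 TPM. The libraries of the groups did not overlap for 1721 of the called genes, against 31.8% of all genes tested (10.6% higher and 21.2% lower). Lack of overlap, where given below for a called gene, therefore adds little to its call. Leaving out P1 left 1095 calls (311 higher, 784 lower), leaving out P3 left 1121 (719 lower), and leaving out N2 left 775 lower. Calls kept in each of the 6 omissions of 1 library numbered 833, of which 255 were higher and 578 lower.

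**Figure D1:**
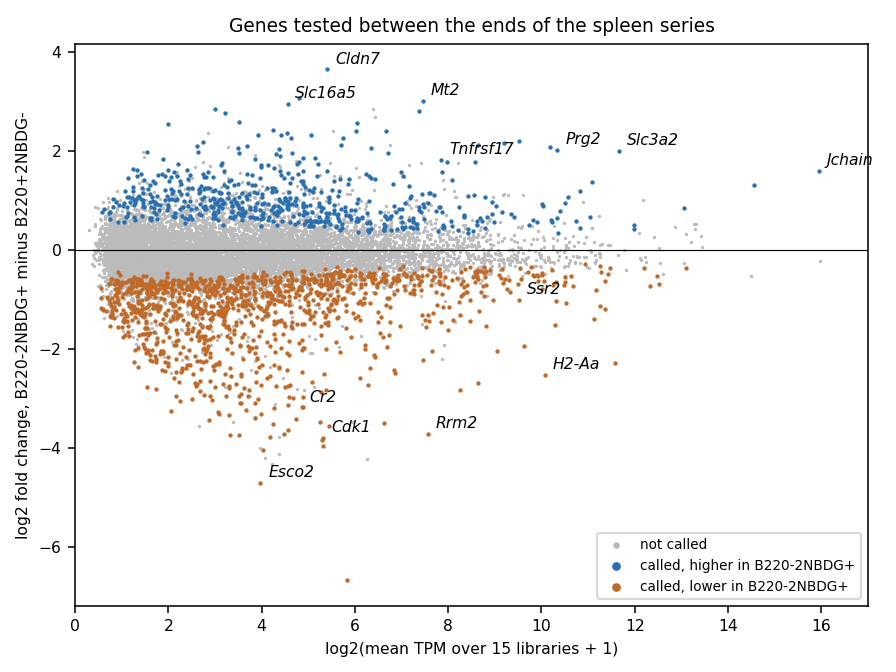
Log2 fold change of each tested gene (vertical axis, B220-2NBDG+ minus B220+2NBDG-) against its mean level (horizontal axis, log2 of mean TPM + 1 over 15 libraries), 1 point per gene. Blue points are the 552 genes called higher and orange points the 1198 called lower; the changes of 4-fold and more lie mostly below 0 (170 against 31), and the labelled points are genes described in the text. The lowest point is Trbj2-1, a T cell receptor segment at 539, 66.4 and 28.2 TPM in B220+2NBDG- and listed at 0 in the B220-2NBDG+ libraries.

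The genes of cell division made up the most marked loss. In the list of mitosis and kinetochore genes, 42 of 43 tested members were lower in B220-2NBDG+ (10.7% of all genes tested were) and 0 higher, with a median log2 fold change of -2.82 beside -0.13 for all genes. All 12 genes with the lowest log2 fold change that the naming rule took (-4.71 to -3.49) belong to mitosis, DNA synthesis or the microtubules of dividing cells. The rule took only genes whose groups did not overlap, so the lack of overlap of these genes is no result. Cdk1, the kinase that drives entry into mitosis, was at 106, 114 and 94.6 TPM in B220+2NBDG- and at 4.91, 5.71 and 9.91 in B220-2NBDG+. Its means differed 15.3-fold (log2 -3.80, SE 0.30, adjusted p = 3.72e-06), and the lowest B220+2NBDG- library was far above the highest B220-2NBDG+ library. In sorted bulk samples, fewer dividing cells and less of the transcript per cell cannot be told apart.

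The partners of Cdk1 showed the same gap. Ccnb1, its cyclin B1 partner, was at 105, 126 and 91.9 TPM against 5.47, 8.01 and 12.1 (log2 -3.56, SE 0.29, adjusted p = 4.71e-06). Ccnb2 was at 42.9, 39.8 and 41.8 TPM against 1.39, 3.14 and 2.07 (log2 -3.77, SE 0.27, adjusted p = 2.53e-06). Cdkn3, a phosphatase that acts on cyclin-dependent kinases, was at 36.0, 42.0 and 45.0 TPM against 0.62, 2.66 and 1.76 (log2 -4.04, SE 0.30, adjusted p = 2.93e-06). For these genes the B220-2NBDG+ libraries differed among themselves by larger ratios than the B220+2NBDG- libraries did, at levels of a few TPM.

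Chromosome and spindle genes fell as far. Esco2, which joins sister chromatids, had the lowest log2 fold change of the genes the rule named: 42.6, 44.0 and 40.5 TPM against 0.206, 1.74 and 0.387 (log2 -4.71, SE 0.44, adjusted p = 1.23e-05). Top2a, the topoisomerase that untangles chromosomes, was at 57.3, 78.3 and 42.4 TPM against 3.28, 3.02 and 4.98 (log2 -3.64, SE 0.29). Birc5 (survivin), of the chromosomal passenger complex, was at 91.6, 96.9 and 121 TPM against 4.14, 7.35 and 7.89 (log2 -3.83, SE 0.36). Knl1, which ties the kinetochore to spindle checkpoint proteins, fell by 3.73 (log2, SE 0.33). Shcbp1, a protein of the dividing cell's midbody, and Stmn1 (stathmin), which takes microtubules apart, lie outside the mitosis list and fell by 3.52 and 3.49 (log2, SE 0.29 and 0.32). Mki67, a common marker of proliferation, changed less: 17.4, 17.8 and 35.2 TPM against 5.04, 7.99 and 4.97 (log2 -1.76, SE 0.30, adjusted p = 0.00166).

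Most DNA synthesis genes were lower with them. In the DNA replication list 32 of 40 tested members were lower and 0 higher (median -1.61). Rrm2, the regulated subunit of the reductase that makes deoxynucleotides, was the most abundant of the 12 lowest genes, at 490, 622 and 385 TPM against 29.6, 33.5 and 48.5 (log2 -3.71, SE 0.29, adjusted p = 3.92e-06). Pclaf, which binds the sliding clamp PCNA, was at 91.9, 115 and 104 TPM against 2.85, 8.10 and 7.51 (log2 -3.96, SE 0.37, adjusted p = 1.3e-05). Lack of overlap was a condition for both genes to be among the 12. Cdc6, which loads the replicative helicase, fell by 3.10 (log2, SE 0.38), Exo1, a DNA repair exonuclease, by 3.04 (SE 0.43), and Mcm5, a subunit of that helicase, by 2.97 (SE 0.32). The list of cell cycle exit genes and D cyclins moved less, with 5 of 15 tested members lower and 0 higher (median -0.58). Its lower members included the antiproliferative Btg1 (34.8, 49.7 and 18.8 TPM against 10.4, 13.5 and 10.1; log2 -1.43, SE 0.34, adjusted p = 0.0123, but 0.0569 with log2 -1.12 without N2), the kinase Cdk6 (log2 -1.38, SE 0.29) and the kinase inhibitor Cdkn2d (log2 -1.22, SE 0.27). Ccng2 (log2 -1.04) and Rbl1 (p107; -0.83) were the others.

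**Figure D2:**
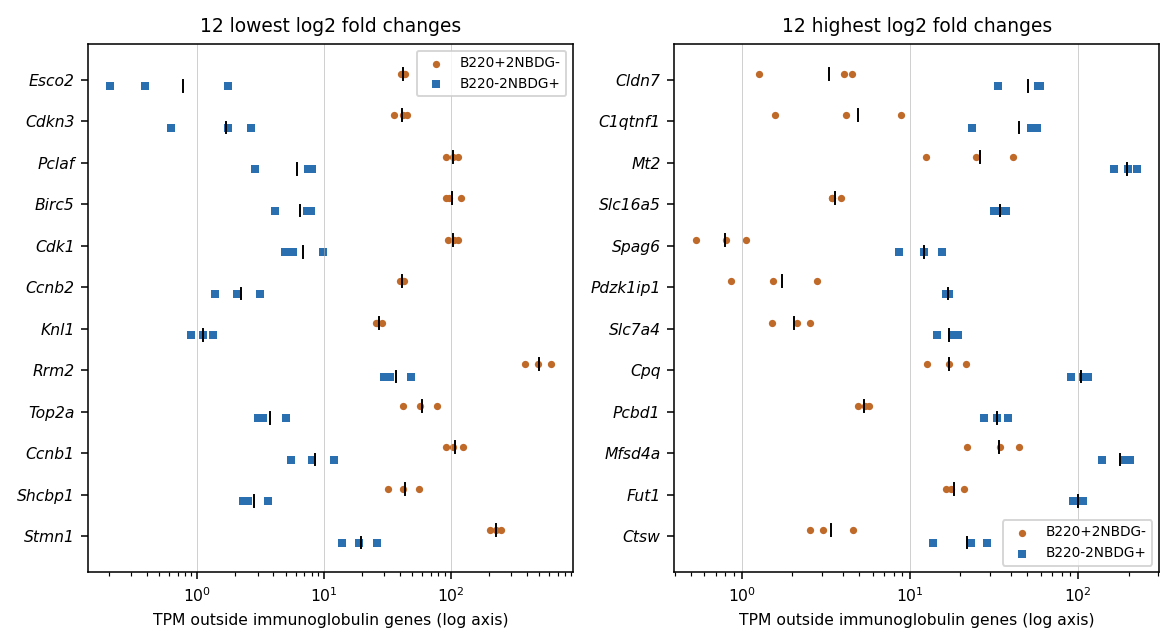
TPM outside immunoglobulin genes (log axis) in each library for the 12 genes with the lowest (left) and the 12 with the highest (right) log2 fold change under the naming rule; circles are the 3 B220+2NBDG- libraries, squares the 3 B220-2NBDG+ libraries and black ticks the group means. The rule took only genes whose groups do not overlap, and B220-2NBDG+ values of the lowest genes reach down to 0.206 TPM (Esco2).

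Since mitosis genes fell together, their promoters were read for motifs known from cell cycle genes, as a description. The windows were the 300 bases around RefSeq gene starts on GRCm38.p6 (250 before and 50 after). Both strands were searched for TTTGAA or TTTAAA, the core of the cell cycle genes homology region (CHR), for CCAAT, the box bound by NF-Y, for TTTCCCGC, TTTGGCGC or TTTGCGCG, forms of the E2F site, and for TGACGTCA, the cyclic AMP response element. Of 37 promoters found for 36 of the 44 mitosis genes, 83.8% held a CHR core, 73% a CCAAT box and 67.6% both. Among all 32851 promoters the shares were 27.6%, 37.4% and 10.7%, and among 11031 promoters of tested genes 20.6%, 38.6% and 8.18%. None of the 37 held one of the E2F forms, against 1.88% of all promoters and 3.44% of those of tested genes. Shares so low leave few or none to be found in 37 promoters. Of 39 promoters of DNA replication genes 33.3% held one. In the promoters of MHC class II genes described below, 8 of 9 (88.9%) held a CCAAT box and 0 a CHR core. CCAAT boxes were also common in lists with fewer or smaller changes, in 81.5% of the promoters of chaperone and unfolded protein response genes, 80% of those of cholesterol genes and 66.7% of those of the TCA list. TGACGTCA was in 5.41% of mitosis promoters, in 1.79% of all and in 3.04% of those of tested genes. Outside the replication and mitosis lists, promoters of genes called lower held both CHR and CCAAT in 11.7% of cases, against 8.18% for tested genes.

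The stretches below are the 150 bases before the RefSeq start of the called members with the lowest log2 fold change that hold the motifs of their list there: 4 mitosis genes with a CHR core and a CCAAT box, 2 replication genes with an E2F form and 2 MHC class II genes with a CCAAT box. Stretches with over 30 bases in a GENCODE exon or in their own gene were passed over. They are read 5′ to 3′ on the gene's strand, with the motifs of the gene's own list in capitals on either strand (on the other strand CCAAT reads ATTGG). No capital stretches overlap. Their spans are chr14:46760391-46760540 (+) for Cdkn3, chr10:69352913-69353062 (-) for Cdk1, chr11:99024190-99024339 (-) for Top2a, chr2:129297213-129297362 (-) for Ckap2l, chr8:75109359-75109508 (+) for Mcm5, chrX:93632156-93632305 (-) for Pola1, chr17:34287824-34287973 (-) for H2-Aa and chr17:34238755-34238904 (+) for H2-Ob. Ckap2l, a spindle protein, fell by 2.95 (log2, SE 0.25), and Pola1, the catalytic subunit of DNA polymerase alpha, by 1.07 (SE 0.24).
Cdkn3: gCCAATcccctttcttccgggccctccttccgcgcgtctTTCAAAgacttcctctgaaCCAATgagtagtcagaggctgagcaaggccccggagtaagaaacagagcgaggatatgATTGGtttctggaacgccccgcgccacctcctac
Cdk1: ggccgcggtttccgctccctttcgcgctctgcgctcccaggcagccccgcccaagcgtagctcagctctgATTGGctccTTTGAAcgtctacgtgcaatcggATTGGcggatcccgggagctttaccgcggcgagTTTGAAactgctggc
Top2a: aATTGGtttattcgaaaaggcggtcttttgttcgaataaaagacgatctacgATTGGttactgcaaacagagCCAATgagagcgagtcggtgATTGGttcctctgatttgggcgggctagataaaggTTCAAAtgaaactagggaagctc
Ckap2l: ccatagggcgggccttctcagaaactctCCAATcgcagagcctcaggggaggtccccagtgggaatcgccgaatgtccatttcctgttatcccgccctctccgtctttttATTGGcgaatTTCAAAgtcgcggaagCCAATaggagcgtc
Mcm5: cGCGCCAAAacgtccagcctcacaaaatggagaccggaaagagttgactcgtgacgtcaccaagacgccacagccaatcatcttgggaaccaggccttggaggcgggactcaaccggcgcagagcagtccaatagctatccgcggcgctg
Pola1: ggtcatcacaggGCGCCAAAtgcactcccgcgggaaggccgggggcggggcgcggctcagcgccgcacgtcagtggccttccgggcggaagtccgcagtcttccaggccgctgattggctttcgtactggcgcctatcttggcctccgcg
H2-Aa: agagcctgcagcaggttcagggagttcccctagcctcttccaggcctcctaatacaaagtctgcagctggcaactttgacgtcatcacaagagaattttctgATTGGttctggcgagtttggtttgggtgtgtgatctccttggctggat
H2-Ob: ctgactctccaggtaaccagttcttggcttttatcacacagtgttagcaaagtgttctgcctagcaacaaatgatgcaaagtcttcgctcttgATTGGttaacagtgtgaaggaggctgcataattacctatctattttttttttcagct

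Cdk1 and Ckap2l hold a CHR core within the last 30 bases before the start, as does Top2a, and that of Cdkn3 lies further upstream. The 4 mitosis genes hold 2 to 4 CCAAT boxes in these 150 bases, and the E2F form of Mcm5 lies at the far end of its stretch. A match is only the presence of these letters.

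Genes for presenting antigen to T cells were lower in B220-2NBDG+. Of the 11 MHC class II genes tested, 10 were lower and 0 higher (median -2.01). H2-Aa, the alpha chain of I-A, was at 2774, 3099 and 1723 TPM against 387, 586 and 334, a 5.81-fold difference of means (log2 -2.53, SE 0.30, adjusted p = 7.47e-05) with no overlap. Its partner H2-Ab1 was at 1714, 1124 and 1759 TPM against 430, 443 and 314 (log2 -1.94, SE 0.20, adjusted p = 2.98e-05). The genes of the peptide loading machinery, H2-DMb2 (log2 -2.49, SE 0.50), H2-Oa (log2 -2.47, SE 0.48) and H2-Ob (log2 -2.12, SE 0.33), fell as well. Ciita, the transactivator of this gene family, was at 21.8, 27.2 and 6.45 TPM against 3.71, 6.23 and 1.14 (log2 -2.01, SE 0.62, adjusted p = 0.0424). Its lowest B220+2NBDG- library was N3, close to the highest B220-2NBDG+ library. The call for Ciita was lost without N1, N2, P1 or P3 (adjusted p = 0.0851 to 0.165).

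Other B cell genes fell in part. Of 32 tested B cell identity genes, 12 were lower and 0 higher (median -1.0). Cr2, the complement receptor CD21, was at 44.0, 85.8 and 57.5 TPM against 2.58, 12.1 and 5.56 (log2 -3.18, SE 0.73, adjusted p = 0.0101). The groups did not overlap. Cd72, a surface regulator of B cell receptor signalling, was at 228, 276 and 54.8 TPM against 20.5, 36.3 and 14.2 (log2 -2.73, SE 0.61). Pax5, the factor that keeps B cell identity, was at 16.7, 31.5 and 4.89 TPM against 1.82, 2.39 and 1.96 (log2 -2.30, SE 0.55, adjusted p = 0.013), and lost its call without N2 (log2 -1.75, adjusted p = 0.0582). N3 held less Cd72 and Pax5 than its replicates, and without it 21 members of the list were called lower. Without N1 it was 7, without N2 it was 5, and without P3 it was 6.

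RNA of other lymphocytes moved with these groups. Of 13 tested T cell markers 6 were lower in B220-2NBDG+ and 0 higher, and their summed level was 887, 439 and 136 TPM in B220+2NBDG- against 48.3, 84.9 and 46.7. Trac, the constant region of the T cell receptor alpha chain, was at 158, 74.6 and 13.5 TPM against 4.17, 5.08 and 3.59 (log2 -3.41, SE 0.74, adjusted p = 0.00714). The defining marker Cd3e was at 53.6, 14.6 and 4.40 TPM against 1.13, 3.43 and 0.729 (log2 -2.71, SE 0.70, adjusted p = 0.0195), a call lost without N1 (log2 -1.85, adjusted p = 0.07) or N2 (adjusted p = 0.0505) or P1 (adjusted p = 0.0646) or P3 (adjusted p = 0.0762). No T cell marker was at 0 in all 6 libraries. The number of T cell markers called lower was 1 without N1, 3 without N2, 11 without N3, and 2 without P1 or P3. Cd4, the 1 tested T cell marker with a log2 above 0, was at 0.723, 1.66 and 2.29 TPM against 1.1, 2.89 and 4.54. NK cell markers summed to 138, 75.0 and 34.0 TPM against 22.6, 23.0 and 16.8, with 3 of 6 tested members lower (the granule protein Nkg7, log2 -2.37, the perforin gene Prf1, -1.70, and the factor Eomes, -1.55), and with 1 lower without N1, N2 or P3. Of the 6, 4 had a log2 below 0 and 2, Klrk1 and Gzma, above it. The NK receptor genes Ncr1 and Klrb1c were at or below 0.585 TPM in the 6 libraries and were not tested. Most of the NK sum was thus Nkg7 and Prf1, and an NK cell source was not tested. The part of these cells in the differences of B cell and other genes was not tested.

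Some genes of established plasma cells were higher in B220-2NBDG+ outside the immunoglobulin genes. In the plasma cell identity list 10 of 27 tested members rose (4.91% of all genes tested did), 1 fell and 16 did not pass, with a median of 0.36; on deposited TPM the median was -0.64, with 2 higher and 15 lower. Prg2, a granule protein also made by plasma cells, was at 400, 450 and 427 TPM against 1513, 1841 and 1815, a 4.05-fold rise (log2 2.01, SE 0.12, adjusted p = 2.43e-06). Tnfrsf17 (BCMA), the receptor through which APRIL keeps plasma cells alive, was at 92.4, 93.6 and 99.6 TPM against 343, 335 and 328 (log2 1.81, SE 0.14, adjusted p = 3.66e-06). The spread within each group was small beside the gap for both genes, and both also rose on deposited TPM.

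Jchain, which joins IgM and IgA into polymers, was the most abundant gene outside the immunoglobulin loci among those named here, at 23142, 23756 and 34440 TPM against 84898, 80689 and 76026 (log2 1.59, SE 0.15, adjusted p = 1.42e-05; 0.39 and not called on deposited TPM). Slpi, a secreted protease inhibitor, was at 12903, 12859 and 9939 TPM against 27377, 24698 and 37001 (log2 1.31, SE 0.16; 0.10 and not called on deposited TPM). Tnfrsf13b (TACI), a second receptor for APRIL, rose from 298 ± 39.1 to 588 ± 112 TPM (SD, n = 3; log2 0.96, SE 0.18, but -0.23 on deposited TPM). Mzb1, a chaperone of immunoglobulin assembly, did not pass the test (log2 -0.48, SE 0.17, adjusted p = 0.0659). So within the list some secretory and receptor genes were higher while the core regulators above and Mzb1 did not pass. Without P1 the number of members called higher was 6. The call of the falling member, Eaf2, a transcription elongation factor (log2 -0.46, adjusted p = 0.0429), was lost in 5 of the 6 omissions of 1 library, while without N2 the number called lower was 2.

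The 12 genes with the highest log2 fold change under the naming rule (2.35 to 3.64) are of mixed kinds. Cldn7, a claudin of cell junctions, was at 4.52, 1.27 and 4.06 TPM in B220+2NBDG- and 59.6, 33.5 and 58.2 in B220-2NBDG+, a 15.4-fold rise (log2 3.64, SE 0.41, adjusted p = 5.5e-05). C1qtnf1, a secreted protein related to complement C1q, was at 4.17, 8.92 and 1.57 TPM against 52.8, 57.1 and 23.3 (log2 3.06, SE 0.47). Both had up to a few-fold spread between replicates, and the rule required groups that did not overlap. Spag6, an axoneme protein of sperm tails, rose from 0.80 ± 0.263 to 12.1 ± 3.49 TPM (SD, n = 3; log2 2.84, SE 0.29). Pdzk1ip1, a small membrane protein, rose from 1.73 ± 0.978 to 16.8 ± 0.414 (log2 2.77, SE 0.28). Fut1, which adds fucose to surface glycans, rose 5.47-fold from 18.4 ± 2.38 (log2 2.39, SE 0.24). Also among the 12 highest were Cpq, a secreted carboxypeptidase (log2 2.56, SE 0.34), Pcbd1, an enzyme of tetrahydrobiopterin recycling (log2 2.41, SE 0.27), Mfsd4a, a predicted solute carrier (log2 2.40, SE 0.37), and Ctsw, a cysteine protease known from cytotoxic lymphocytes (log2 2.35, SE 0.26).

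Several genes of amino acid supply rose outside the immunoglobulin genes. Of the 27 tested genes for amino acid transport and ATF4 targets 10 rose and 2 fell, beside 4.91% and 10.7% of all genes tested. The median was 0.44, and -0.28 with 2 higher and 14 lower on deposited TPM. Asns, which makes asparagine and is a classical target of the stress-induced factor ATF4, was at 168, 192 and 134 TPM against 613, 545 and 528 (log2 1.78, SE 0.16, adjusted p = 9.49e-06). Slc7a4, of the cationic amino acid transporter family, was at 2.54, 2.12 and 1.52 TPM against 17.7, 19.3 and 14.5 (log2 2.57, SE 0.26, adjusted p = 2.24e-05). For both genes every B220-2NBDG+ library exceeded every B220+2NBDG- library, which the naming rule required of Slc7a4. Both stayed called in each omission of 1 library.

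Other members of that list were less even. Slc3a2, the heavy chain shared by several amino acid exchangers, was at 1155, 658 and 2666 TPM against 6694, 4455 and 4263 (log2 1.99, SE 0.41, adjusted p = 0.00585), with N3 the highest of its group. Slc6a9, a glycine transporter, was at 6.0, 1.91 and 16.3 TPM against 79.6, 29.4 and 16.4 (log2 2.31, SE 0.72, adjusted p = 0.0452). Replicate 3 gave nearly the same Slc6a9 level in both groups, and the call was lost without N1, N2, P1 or P2 (adjusted p = 0.0843 to 0.172). Phgdh, the entry enzyme of serine synthesis, rose from 415, 335 and 374 TPM to 794, 608 and 672 (log2 0.88, SE 0.16, adjusted p = 0.00217; -0.32 on deposited TPM). Without N1 or P1 6 members of the list were called higher. The falling members, the neutral amino acid transporters Slc43a1 (log2 -0.63, adjusted p = 0.0349) and Slc38a1 (log2 -0.50, adjusted p = 0.0491), each lost their call in 5 of the 6 omissions of 1 library.

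Lysosomal proteases and autophagy genes rose in a part of their list: 8 of 37 tested members higher and 1 lower, beside 4.91% and 10.7% of all genes tested. The median was 0.24, and -0.41 on deposited TPM. Wipi1, which marks forming autophagosomes, was at 9.59, 6.60 and 10.8 TPM against 43.3, 32.8 and 35.3 (log2 1.95, SE 0.25, adjusted p = 0.000167). Ctsl, the protease cathepsin L, was at 34.3, 31.6 and 42.5 TPM against 103, 95.2 and 109 (log2 1.49, SE 0.20, adjusted p = 0.000235). Neither gene had overlapping groups. Ctss, cathepsin S, rose from 659 ± 40.7 to 1267 ± 184 TPM (SD, n = 3; log2 0.93, SE 0.17, but -0.27 on deposited TPM). Atg16l1, of the autophagosome conjugation machinery, was the member that fell (log2 -0.70, adjusted p = 0.0419), and it lost its call in each of the 6 omissions of 1 library.

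The metallothionein genes Mt1 and Mt2 rose and Mt3 fell. In the list of metallothioneins and oxidative stress defence 4 of 26 tested members rose and 3 fell, beside 4.91% and 10.7% of all genes tested. The median was 0.07, and -0.52 on deposited TPM. Mt2, a zinc-binding metallothionein, was at 24.6, 12.5 and 41.0 TPM against 225, 163 and 198 (log2 3.00, SE 0.37, adjusted p = 0.000118), and Mt1 at 136, 72.5 and 181 against 573, 410 and 687 (log2 2.16, SE 0.37, adjusted p = 0.00148). Mt3 went from 6.98, 6.33 and 6.66 TPM to 1.43, 2.80 and 0.513 (log2 -1.67, SE 0.34, adjusted p = 0.00557). Gpx4, which repairs oxidized lipids, rose (log2 1.07, SE 0.18, but -0.13 on deposited TPM), and the thiol proteins Prdx1 and Txn1 fell (-0.52 each). Hmox1, a haem-degrading enzyme abundant in macrophages, was at 17.5, 85.4 and 8.39 TPM against 67.4, 282 and 270 (log2 2.81, SE 0.88, adjusted p = 0.0466), with overlapping groups. Its call was lost without N1, N3, P2 or P3 (adjusted p = 0.122 to 0.147). Monocyte, macrophage and dendritic cell markers, given below, varied over the same libraries, and their part in this value was not tested. Without P1, 1 member was called lower.

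**Figure D3:**
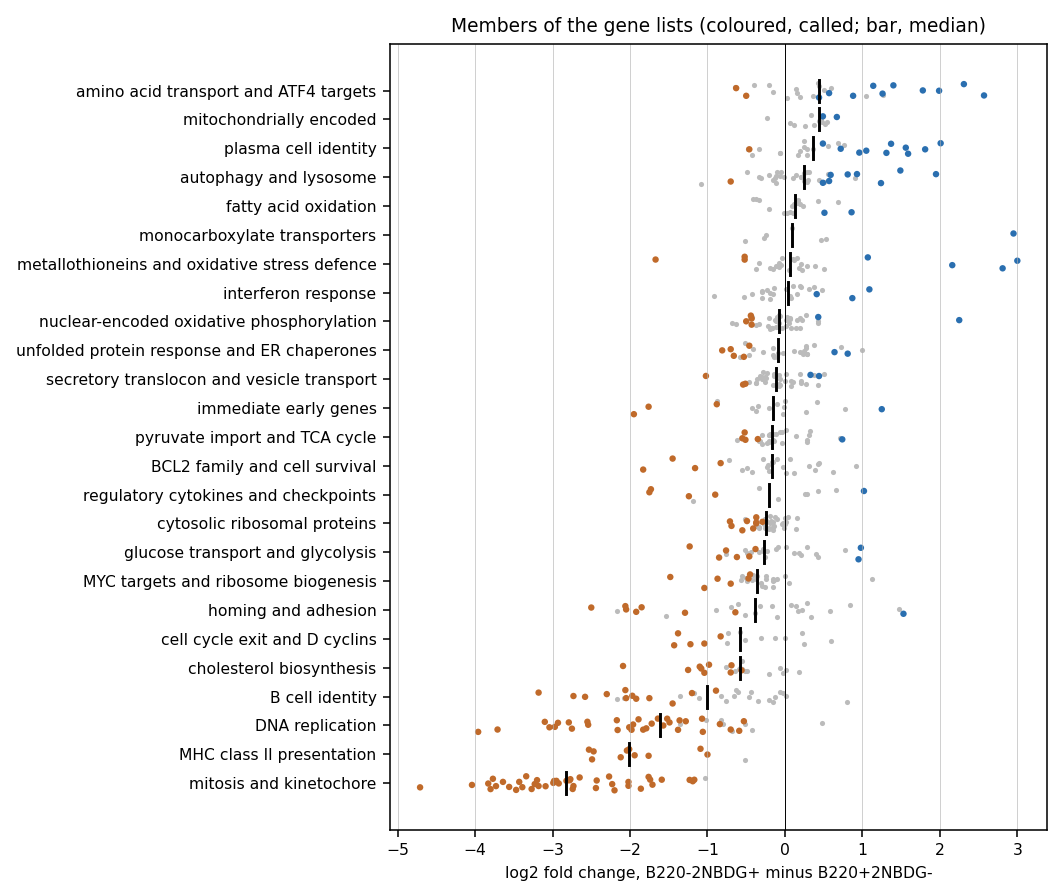
Log2 fold change (horizontal axis, B220-2NBDG+ minus B220+2NBDG-) of each tested member of the 25 pathway lists (rows, ordered by median). Blue and orange points are members called higher and lower, grey points were not called, and black bars are medians; mitosis (-2.82), MHC class II (-2.01) and DNA replication (-1.61) lie lowest. The 8 lists with a median above 0 had medians below 0 on deposited TPM.

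The groups differ by uptake of a glucose analogue and by B220 at once, so genes of glucose use cannot be tied to uptake alone. The share of these genes that rose was near that of all genes tested. The transporters Slc2a1 (GLUT1; 12.6, 11.3 and 12.2 TPM against 19.9, 14.2 and 14.6; log2 0.40, SE 0.23, adjusted p = 0.286, and -0.34 on deposited TPM) and Slc2a3 (GLUT3; 7.4, 16.4 and 4.55 TPM against 8.26, 2.15 and 9.75; log2 -0.46, SE 0.49, adjusted p = 0.588, and 0.10 without P2) did not pass the test. Of 28 tested genes of glucose transport and glycolysis 6 fell and 2 rose (median -0.27), beside 10.7% and 4.91% of all genes tested. Eno1, enolase, was at 614, 731 and 449 TPM against 219, 261 and 274 (log2 -1.23, SE 0.21, adjusted p = 0.00166). Pkm, pyruvate kinase, fell by 0.85 (log2, SE 0.18) and Ldha, lactate dehydrogenase, by 0.76 (SE 0.13). The members that rose were subunits of phosphofructokinase, Pfkl (19.4 ± 5.63 to 37.5 ± 3.78 TPM, SD, n = 3; log2 0.95, SE 0.20, but -0.14 on deposited TPM) and Pfkm (2.09 ± 0.533 to 5.16 ± 1.41; log2 0.98, SE 0.24, adjusted p = 0.0135, but 0.01 and not called on deposited TPM), the latter lost without P1 (log2 0.81, adjusted p = 0.0654).

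Of 7 tested monocarboxylate transporters, 1 passed. Slc16a5, of the family that carries lactate and other organic anions, was at 3.91, 3.43 and 3.45 TPM against 34.4, 31.7 and 37.1, a 9.57-fold rise (log2 2.94, SE 0.20, adjusted p = 2.43e-06) with little spread in either group. Among respiratory chain genes encoded in the nucleus, 2 of 41 tested members rose and 4 fell (median -0.08; 0.07 under median of ratios), shares close to the 4.91% and 10.7% of all genes tested. The one large change was in Cox6a2, the cytochrome oxidase subunit known from heart and skeletal muscle, at 14.1, 19.2 and 17.6 TPM against 68.9, 113 and 75.6 (log2 2.25, SE 0.29, adjusted p = 0.000173). The other members changed by less: Ndufs7 rose (log2 0.43, but -0.72 on deposited TPM), and Ndufa4 (-0.50), Ndufb5 (-0.44), Atp5j (-0.43) and Cox6c (-0.43) fell. The pyruvate import and TCA cycle list held 4 lower and 1 higher of 30 tested (median -0.17). The malate dehydrogenases Mdh1 (log2 -0.35) and Mdh2 (-0.52), the pyruvate dehydrogenase subunit Pdhb (-0.55) and the succinyl-CoA ligase subunit Suclg1 (-0.51) fell, and Suclg2, another subunit of that ligase, rose (0.74, but -0.32 on deposited TPM). Of 20 tested fatty acid oxidation genes 2 rose (median 0.13; -0.68 on deposited TPM), Eci1 (log2 0.86, but -0.20 on deposited TPM) and Hadh (0.51, but -0.43). Of 13 mitochondrially encoded genes 2 rose (median 0.44; -0.76 on deposited TPM), mt-Nd5 (log2 0.67, but -0.52 on deposited TPM) and mt-Cytb (0.49, but -0.71). These small counts rested on single libraries. Without N3, 7 members of the TCA list were lower, 5 of the respiratory chain list higher and 2 lower, and 9 mitochondrially encoded genes higher. Members of the TCA list called lower were 1 without N1 or P3 and 2 without N2, and the rising member was called without N1 and in none of the other 5 omissions. For the respiratory chain, 0 were lower without P1, 1 without P3, and 2 without P2 or N1, and 1 was higher without P2. Mitochondrially encoded genes had 0 called higher without N1, N2, P1 or P3, and 1 without P2. Fatty acid oxidation had 1 without N2, P1 or P2.

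Some genes of sterol synthesis were lower. Of 22 tested cholesterol biosynthesis genes 9 fell, beside 10.7% of all genes tested, 0 rose and 13 did not pass (median -0.58). Idi1, which makes the isoprene building block, was at 22.8, 40.9 and 18.8 TPM against 4.31, 8.88 and 3.83 (log2 -2.09, SE 0.41, adjusted p = 0.00377). Pmvk, a kinase of the mevalonate pathway, was at 57.6, 83.1 and 50.4 TPM against 26.5, 32.3 and 27.1 (log2 -1.10, SE 0.18, adjusted p = 0.00116). Sqle, the squalene epoxidase, fell by 1.08 (log2, SE 0.22). The groups did not overlap for these 3 genes.

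The lists of protein synthesis and secretion changed little as lists outside the immunoglobulin genes. On deposited TPM 8854 of the 11246 genes tested were lower. There the chaperone list had a median of -0.79 with 26 lower, and the translocon list -1.19 with 39 lower. Of 30 tested genes of the unfolded protein response and ER chaperones, 5 fell and 2 rose (median -0.09; 0.05 under median of ratios), beside 10.7% and 4.91% of all genes tested. Hsp90b1 (GRP94), a chaperone of the ER lumen, was at 3129, 3279 and 3434 TPM against 2000, 1878 and 1749 (log2 -0.81, SE 0.12, adjusted p = 0.000553). Calr, calreticulin, was at 970, 938 and 1068 TPM against 631, 601 and 600 (log2 -0.70, SE 0.11, adjusted p = 0.000897). The other members that fell were Manf (log2 -0.66), Derl2 (-0.53) and Pdia6 (-0.46). Those that rose were Trib3, a stress-induced pseudokinase (log2 0.81, adjusted p = 0.0486, but -0.00 on deposited TPM), and Herpud1, of ER-associated degradation (log2 0.64, adjusted p = 0.0343, but -0.56 on deposited TPM). Hspa5 (BiP), the main ER chaperone, was at 2227, 2205 and 1388 TPM against 1848, 1877 and 1432 and did not pass (log2 -0.15, SE 0.17, adjusted p = 0.609). In the translocon and vesicle transport list 3 of 39 tested fell and 2 rose (median -0.11; 0.03 under median of ratios). Ssr2, a subunit of the translocon-associated complex, was at 1031, 1068 and 1205 TPM against 518, 560 and 543 (log2 -1.02, SE 0.11, adjusted p = 3.02e-05). The translocon components Sec63 (log2 -0.54) and Sec61g (-0.51) were also lower, while the cargo receptor Tmed10 (log2 0.44, but -0.76 on deposited TPM) and Srp14 of the signal recognition particle (0.33, but -0.83) were higher. The counts of rising members moved with single libraries. For chaperones the count was 0 without N2, P1 or P2 and 1 without N1. For the translocon list it was 4 without N3, 0 without P3, and 1 without N1, P1 or P2. Its members called lower numbered 1 without P1 or P3.

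A minority of ribosome genes were lower outside the immunoglobulin genes, beside 10.7% of all genes tested. On deposited TPM 41 ribosomal protein genes were lower (median -1.43) and 26 genes of the MYC and biogenesis list (median -0.87). Of 41 tested cytosolic ribosomal protein genes 9 fell and 0 rose (median -0.24), but 2 fell under median of ratios (median -0.10) and 4 without P1. Rpl4 was at 1563, 1714 and 1559 TPM against 941, 964 and 1044 (log2 -0.71, SE 0.10, adjusted p = 0.00023) and Rps19 at 7652, 8248 and 7244 against 4264, 4979 and 5078 (log2 -0.69, SE 0.11, adjusted p = 0.000798). Of 27 tested MYC target and ribosome biogenesis genes 6 fell and 0 rose (median -0.36), with 2 under median of ratios, 10 without N3 and 3 without P1. Nop58, a core protein of small nucleolar particles, fell by 0.87 (log2, SE 0.19, adjusted p = 0.00819). Myc itself, at 20.3, 27.4 and 22.5 TPM against 16.4, 18.5 and 16.1, did not pass (log2 -0.43, SE 0.23, adjusted p = 0.239).

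Some receptors that guide cell position differed. Of 27 tested homing and adhesion genes 7 fell and 1 rose (median -0.39), beside 10.7% and 4.91% of all genes tested. S1pr1, the sphingosine 1-phosphate receptor that lets lymphocytes leave tissues, was at 30.6, 33.0 and 13.1 TPM against 3.67, 6.04 and 1.53 (log2 -2.50, SE 0.47, adjusted p = 0.0029). Klf2, a factor known to drive S1pr1 transcription, was at 5.67, 5.19 and 4.54 TPM against 1.29, 2.10 and 1.2 (log2 -1.29, SE 0.26, adjusted p = 0.00433). Cxcr3, a receptor for interferon-induced chemokines, was at 96.4, 97.9 and 86.1 TPM against 23.2, 21.9 and 19.8 (log2 -2.06, SE 0.17, adjusted p = 5.56e-06). The groups did not overlap for these 3 genes. The member that rose was Ccr10, a chemokine receptor of mucosal antibody-secreting cells, at 2.28, 1.5 and 1.70 TPM against 8.44, 8.35 and 5.09 (log2 1.53, SE 0.33, adjusted p = 0.00715). On deposited TPM Ccr10 was at 0.13 and not called, at levels where the added 1 TPM outweighs the gene. Members called lower numbered 3 without N1 or P3 and 4 without N2 or P1.

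In the BCL2 family and survival list 4 of 25 tested members fell, beside 10.7% of all genes tested, and 0 rose (median -0.17). Bcl2l11 (BIM), which triggers apoptosis, was at 44.2, 53.1 and 45.6 TPM against 9.88, 11.7 and 17.3 (log2 -1.83, SE 0.34, adjusted p = 0.00283). Fas, a death receptor, was at 70.8, 71.1 and 58.9 TPM against 37.0, 36.8 and 37.3 (log2 -0.83, SE 0.18, adjusted p = 0.0063). Bcl2a1d, an antiapoptotic gene of a family of near-identical copies whose reads could be split between them, fell by 1.45 (log2, SE 0.29). The falling members named here include promoters of cell death and 1 antiapoptotic gene, and the 4 calls held in each omission of 1 library.

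Smaller lists gave few calls, to be read beside 10.7% lower and 4.91% higher among all genes tested. Of 12 tested regulatory cytokine and checkpoint genes 4 fell and 1 rose (median -0.21). Tigit, an inhibitory receptor of lymphocytes, was at 140, 175 and 201 TPM against 35.1, 71.5 and 51.3 (log2 -1.73, SE 0.35, adjusted p = 0.00461), and Pdcd1lg2 (PD-L2) rose from 5.76 ± 0.945 to 12.7 ± 1.47 TPM (SD, n = 3; log2 1.02, SE 0.21, but -0.02 on deposited TPM). Havcr1 (TIM-1; log2 -1.75, SE 0.44), Il12a, a subunit of interleukin 12 (-1.24, SE 0.32), and the checkpoint receptor Ctla4 (-0.90, SE 0.26) fell as well. Of 16 tested immediate early genes 3 fell and 1 rose (median -0.15), among them the phosphatase Dusp2 (5.45, 7.21 and 8.68 TPM against 0.801, 2.55 and 1.08; log2 -1.76, SE 0.32, adjusted p = 0.00225). Egr2 (log2 -1.95, SE 0.49) and Egr1 (-0.88, SE 0.27), zinc finger factors, also fell, but the call was lost for Egr1 in each of the 6 omissions of 1 library (adjusted p = 0.0592 to 0.126) and for Egr2 without N1, N2 or P1. Ier3 rose (log2 1.25, SE 0.28), but was at 0.06 and not called on deposited TPM, where the added 1 TPM outweighs the gene. Of 24 tested interferon response genes 3 rose and 0 fell (median 0.04; -0.32 on deposited TPM), led by Bst2 (tetherin), from 87.5 ± 23.7 to 183 ± 18.8 TPM (log2 1.09, SE 0.20, adjusted p = 0.00284, but -0.10 on deposited TPM), with the nucleic acid sensor Zbp1 (0.87, but -0.30) and Ly6e (0.41, but -0.79). Without N3 the members called higher were 2 for checkpoints and 2 for immediate early genes. Checkpoint members called lower numbered 1 without P1 and 2 without N1, P2 or P3. Interferon members called higher numbered 1 without N1, P1 or P3, and immediate early members called lower 1 without N1, N2 or P1.

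Erythroid, neutrophil and monocyte markers were highest in replicate 3 of each group. Erythroid markers summed to 96.7, 91.2 and 2110 TPM in B220+2NBDG- and 144, 145 and 4927 in B220-2NBDG+, and 0 of 11 tested members were called. Neutrophil markers summed to 65.6, 43.7 and 414 TPM against 73.1, 77.8 and 364 (0 of 15 called, and 1 higher without N1 or P2). The step between replicate 3 and the others was larger than that between the groups for both lists. Monocyte, macrophage and dendritic cell markers summed to 146, 310 and 487 TPM against 227, 594 and 940 (0 of 19 called). Within each replicate number the erythroid and monocyte sums were higher in B220-2NBDG+. Megakaryocyte, mast cell and stromal lists had 2, 3 and 1 tested members and 0 called. At an unadjusted limma p under 0.05, 3 neutrophil markers passed and 0 of the other lists in this paragraph did. Of the markers in these lists, Gp1bb, Mcpt4 and Cma1 were listed at 0 in all 6 libraries.

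**Figure D4:**
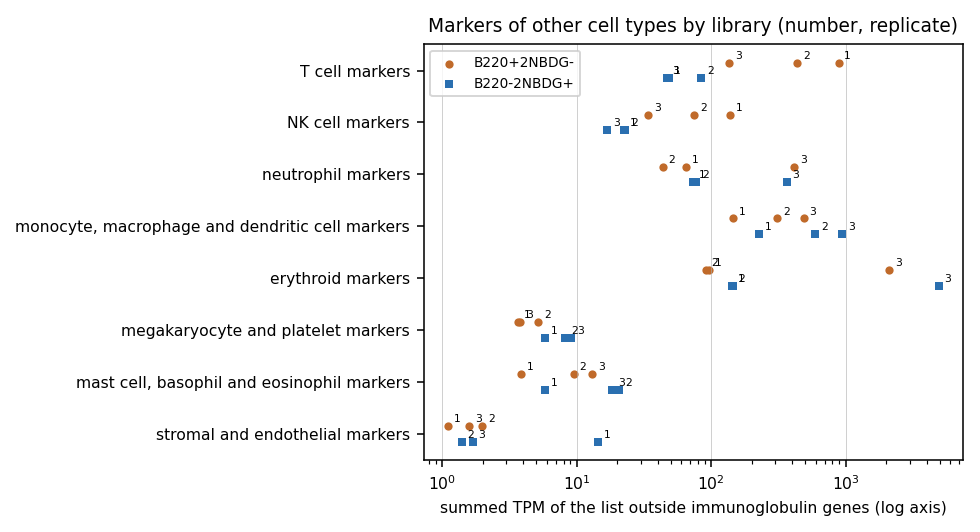
Summed TPM outside immunoglobulin genes (log axis) of the 8 lists of other cell types in each of the 6 libraries; circles are B220+2NBDG-, squares B220-2NBDG+, and the number beside each point is its replicate. T and NK cell markers are higher in all B220+2NBDG- libraries, and erythroid markers reach 2110 and 4927 TPM in replicate 3 of the 2 groups.

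The remaining spleen groups, which share 1 feature with each end, are given here for genes described above. Cdk1 averaged 105 TPM at the B220+2NBDG- end and 6.85 at the B220-2NBDG+ end, with 32.8 ± 11.6 in the B220-2NBDG- libraries and 37.7 ± 13.8 in the B220+2NBDG+ libraries (SD, n = 3). The intermediate means differed by less than the SD of either group for Cdk1 and for Rrm2 (156 ± 53.8 and 190 ± 56.0 TPM). For Asns (397 ± 8.59 and 371 ± 57.5) they differed by less than the SD of B220+2NBDG+ and by more than that of B220-2NBDG-.

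For some genes the intermediate groups stood near different ends. Slc16a5 averaged 3.60 TPM at the B220+2NBDG- end, 5.76 ± 1.35 in the B220-2NBDG- libraries, 27.7 ± 6.54 in the B220+2NBDG+ libraries and 34.4 at the other end, so its level went with 2NBDG. In the same order Cxcr3 averaged 93.5, 35.1 ± 6.74, 76.3 ± 5.90 and 21.6 TPM, so its level went with B220. Cox6a2 averaged 17, 87.3 ± 31.1, 39.2 ± 8.78 and 85.8 TPM, with B220-2NBDG- level with B220-2NBDG+. Whether the step with 2NBDG depends on B220 was tested as an interaction over all genes. It was called for 3 of 11246 genes (0.0267%), with 623 at an unadjusted p under 0.05. It was not called for Slc16a5 (log2 -0.22, adjusted p = 0.976), Cxcr3 (-0.37, 0.976), Cox6a2 (-1.13, 0.745) or Cdk1 (-0.59, 0.976). None of the 3 called genes was called between the ends.

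**Figure D5:**
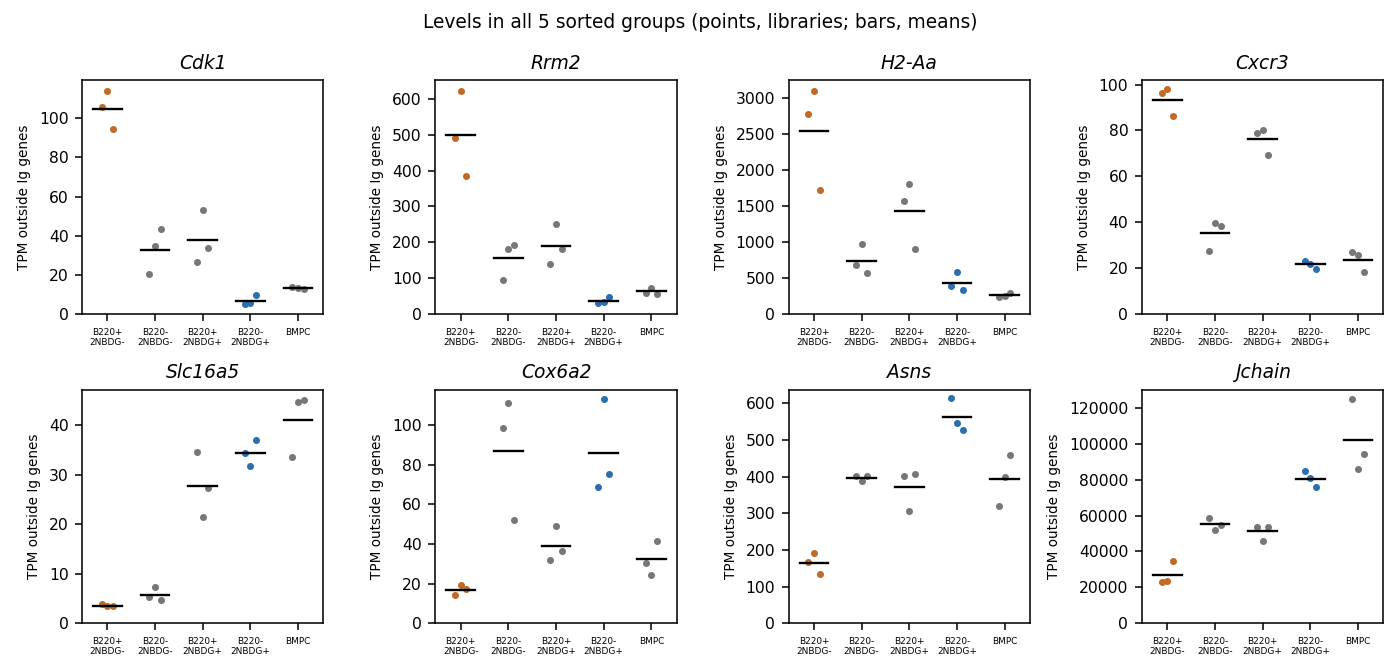
TPM outside immunoglobulin genes of 8 genes in all 5 sorted groups; points are libraries, bars are means of 3, orange marks B220+2NBDG- and blue B220-2NBDG+. Cdk1 and Rrm2 have means between those of the ends in both intermediate groups. Slc16a5 is high in the 2NBDG+ groups (27.7 and 34.4 in spleen) and Cxcr3 in the B220+ groups (93.5 and 76.3).

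Genes described above lie on GRCm38, in the GENCODE M21 annotation, as follows. Esco2 (ENSMUSG00000022034) spans chromosome 14 from 65819038 to 65833994, Cdk1 (ENSMUSG00000019942) chromosome 10 from 69335146 to 69352938 and Rrm2 (ENSMUSG00000020649) chromosome 12 from 24708241 to 24714146. H2-Aa (ENSMUSG00000036594) spans chromosome 17 from 34282744 to 34287823, beside the other class II genes. Cldn7 (ENSMUSG00000018569) spans chromosome 11 from 69964779 to 69967885, Slc16a5 (ENSMUSG00000045775) chromosome 11 from 115462474 to 115474398 and Mt2 (ENSMUSG00000031762) chromosome 8 from 94172664 to 94173568, with Mt1 next to it from 94179082 to 94180327.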

How the data were processed

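The deposited values were TPM per transcript with transcript lengths, estimated by the authors with Salmon 0.9.1 on GRCm38.p6, per the submitters' processing notes. For the work here they were summed per gene, the 262 immunoglobulin locus genes were set aside, and the other genes were rescaled to 1000000 per library. Genes with at least 1 TPM in 3 of the 15 libraries (11246) were tested on log2(TPM + 1) with limma 3.58.1 (R 4.3.3; moderated with a mean trend, 5 groups in one fit, Benjamini-Hochberg adjustment). Fold changes on this scale understate the change of low genes, and more so on deposited TPM, to which the same 1 was added. TPM keeps no depth, so reads were estimated from TPM and effective length; 71% to 73.7% of low values (up to 20 reads, transcripts of 500 nt or more) then came out whole within 0.05, so no count test was run. On simulated data 53% of genes changed by 1 (log2) and 92% of those changed by 2 were recovered, and 5.84% of the calls were false. Only 200 of 11246 genes were changed there, as many up as down, all averaging over 5 TPM, with genes drawn independently. The data have far more calls, mostly lower, and many genes of lower level, so these rates may not carry over. Single quantities were compared by two-sided exact permutation tests, by which 3 against 3 libraries cannot go below 0.1.

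Genes were named by rule. From the called genes with 10 TPM or more in either group and no overlap of libraries came the 12 of highest and the 12 of lowest log2 fold change, T cell receptor segments, pseudogenes and gene models with no proper name not counted. Each list gave at most 4 more called members, and the genes of the sort were included; some genes this rule gave are not reported here. The comparison, the lists and the genes were chosen with earlier results of these data known. Further members of small counts, Mki67, Mcm5, Ckap2l, Pola1, H2-Ab1, Slpi, Tnfrsf13b, Mzb1, Hspa5, Myc, Phgdh, Ldha, Klf2 and Ccr10 were named after their values were seen.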

Additional observations from a re-analysis of the deposited data

Results flagged for a closer look

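The step with 2NBDG differed between B220- and B220+ cells, by the interaction test over all 11246 genes, for 3 genes, and each was high in B220-2NBDG- libraries. Trav6n-6, a variable segment of the T cell receptor alpha chain, was at 2.46, 2.87 and 4.01 TPM in B220-2NBDG- and listed at 0 in the other 12 libraries (interaction log2 -2.02, limma adjusted p = 0.00269). Mapt, which encodes the microtubule protein tau, was at 4.40, 2.57 and 2.22 TPM in B220-2NBDG- and at 0.156 or less elsewhere (interaction log2 -1.86, adjusted p = 0.0222). Gm3183, an unnamed gene model, was at 2.10, 1.45 and 1.46 TPM in B220-2NBDG- and up to 0.635 in B220+2NBDG+ (interaction log2 -1.77, adjusted p = 0.0222). The levels are low, and none of the 3 was called between B220-2NBDG+ and B220+2NBDG-. With estimated reads in place of TPM the interaction was -0.23 for Trav6n-6 (adjusted p = 0.979), -0.08 for Mapt (0.991) and -2.29 for Gm3183 (0.0579). The call for Trav6n-6 held in each omission of 1 library. That for Gm3183 was lost without B220+2NBDG- replicate 1 or 2 or B220-2NBDG+ replicate 2 or 3 (adjusted p = 0.0957 to 0.11), and that for Mapt without any of these or B220-2NBDG+ replicate 1 (adjusted p = 0.0729 to 0.106).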

How the results depend on the processing

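The scale decided the balance of calls. On TPM as deposited, where immunoglobulin genes stay in the total, 8916 genes were called (62 higher, 8854 lower) and 80 interactions. Under median-of-ratios scaling 840 were higher. Fitting only the 6 libraries of the groups compared gave 788 calls (257 higher, 531 lower), and no interaction, which needs the other groups. Of 141 genes named in the text, 51 lost their call in that fit and 90 kept their result. Their calls in the main fit thus rest on the spread of all 15 libraries. Weighting libraries (arrayWeights) gave 3007 calls (981 higher, 2026 lower). The interaction was called for 0 genes on estimated reads, with a pseudocount of 0.1 or with a filter of 5 TPM, for 1 without transcripts under 300 nt and for 26 with no filter on low values. Omitting each library in turn gave 1095 to 2175 calls, 311 to 641 higher, 719 to 1534 lower and 1 to 4 interactions. The cause of these shifts was not tested. Fits of 6 libraries, and those leaving out a library, hold fewer samples by construction.

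On deposited TPM the sign turned for Trib3 (-0.00), Tmed10 (-0.76), Ctss (-0.27), Pfkl (-0.14), Suclg2 (-0.32), Ndufs7 (-0.72), mt-Nd5 (-0.52), mt-Cytb (-0.71), Eci1 (-0.20), Hadh (-0.43), Pdcd1lg2 (-0.02), Bst2 (-0.10), Zbp1 (-0.30), Ly6e (-0.79), Phgdh (-0.32), Tnfrsf13b (-0.23), Herpud1 (-0.56), Srp14 (-0.83) and Gpx4 (-0.13), and for Sdc1 (-0.34), Prdm1 (-0.64), Irf4 (-0.95), Xbp1 (-0.92) and Slc2a1 (-0.34), which were not called. Slc2a3, also not called, was at 0.10 without B220-2NBDG+ replicate 2. The difference in immunoglobulin share kept its sign in each alternative (0.671 to 19.1 points).

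Same-numbered libraries of the 2 groups correlated at 0.142, 0.094 and 0.103 in their deviations from the group means and others at -0.15 to 0.009, so each library correlated best with its own number. No label ties the numbers and 1 pair lay under 0.1, the bar of this check, so they were not taken as pairs. The correlations are a hint of pairing from the data, not from the design. Hbb-bs, an erythroid gene, was at 930 and 2275 TPM in replicate 3 of the groups compared. In replicate 3 of B220-2NBDG- and B220+2NBDG+ it was at 1543 and 3177, and in replicates 1 and 2 of the spleen groups at 22.7 to 183. The main fit ignores any such pairing, also for the lists of other cell types. With a replicate block 1891 genes were called (604 higher, 1287 lower), and the immunoglobulin difference had an exact permutation p of 0.25, the smallest that 3 pairs allow. Depth outside immunoglobulin genes, lower in B220-2NBDG+, limits low genes.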
